A study of Mus musculus with 18 samples.

Results

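This report describes 10 genes of the cardiac potassium currents in single cells of the postnatal mouse heart: Kcnip2, Kcnd2, Kcnd3, Kcnj2, Kcnj3, Kcnj5, Kcnj11, Kcnq1, Kcnh2 and Kcna5. They were named as a group, with earlier results of these data known, among the 35808 nuclear genes of the deposited UMI count tables (a UMI is a molecular barcode that marks 1 captured RNA molecule), and all 10 were found there. The study loaded heart cells into the nanowells of ICELL8 chips and deposited 1 table per chip, 18 in all. The tables held 23475 wells with a cell. Filters on genes and UMIs kept 19810, and 6000 fell in clusters called cardiomyocyte-like from their markers.

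All samples carried the labelled strain Myh6/Esr1-Tomato, in which the heart muscle promoter of Myh6 drives a Cre that tamoxifen, given to the nursing mothers, switches on to mark cardiomyocytes red. The stages were P4 (2 samples, day 4), P7 (2 samples, day 7), P14 (2 samples, day 14) and P28 (6 samples, day 28), with no other treatment. A further 6 samples (day 28) mixed cells of 4 animals whose left ventricle wall had received lentivirus at birth, 2 with a hairpin against Jun (shJun) and 2 with a non-targeting hairpin (shNT). The well reports deposited with the counts gave each well's animal. By the labels, ventricle pieces of P4 and P7 mice were digested with a kit, whereas P14 and P28 hearts were perfused, so stage, chip and digestion cannot be told apart. The P4 and P7 well reports named the same 2 animal labels on each chip, so the P4 or P7 samples may be technical repeats and the p-values then measure only the spread between chips.

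Potassium currents end the action potential of the heart muscle cell and set its resting potential. In rodents the fast transient outward current, carried by Kv4 channels with the subunit KChIP2, repolarizes the ventricle early, and it is known to grow after birth as the action potential shortens. In the atria and the sinus node, acetylcholine opens the inward rectifier formed by GIRK1 and GIRK4 and slows the beat.

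The P4, P7 and P14 samples held 164 and 162, 14 and 20, and 248 and 126 cardiomyocyte-like cells, and replicates 1, 3 and 5 of P28 held 653, 570 and 629. Replicates 2, 4 and 6 of P28 held 2, 3 and 6 and were not summed. Of the P14 cells, 342 lay in a cluster whose cardiomyocyte markers were a mean of 1.43 above the other cells on the log2 scale, and its mural markers 1.13. Calling cardiomyocytes one by one from their marker UMIs gave 102 and 98 cells at P14, so the identity of the P14 cells is less secure. Cardiomyocyte-like cells were 60.1%, 88.1% and 91.2% of the cells kept in replicates 1, 3 and 5 of P28. They were 0.137% to 0.597% in replicates 2, 4 and 6, and 1.10% to 25.0% at P4, P7 and P14. The cell mix of the chips thus also differed between P28 and the earlier stages and cannot be told apart from stage. UMIs were summed over the cardiomyocyte-like cells of each sample with at least 20 of them, which left 8 stage sums of 1047320 to 23409240 UMIs and P7 with replicate 2 only. A further P7 cluster of 245 and 252 cells led by globin genes, Myoz2, Tcap and Tnnc1 was left without a name by the marker rule and was not counted, although its cardiomyocyte markers stood at 15984 and 18991 CPM, against 75664 and 87749 in the cardiomyocyte-like cells of the same chips. Also unnamed and not counted were clusters of 250 cells at P14, 200 of shNT animal 1 and 256 of shJun animal 2. Cardiomyocyte was the best-scoring class of each, with 8 of its markers detected. Levels are given as CPM, the UMIs of a gene scaled to the same total in each sum, which corrects for depth but not for gene length, so they are compared between samples and never between genes. In such sums fewer cells with a gene and fewer molecules per cell cannot be told apart. Samples held 5568076 to 79284379 UMIs, and chips of 1 group shared 16.8% to 34.3% of the well barcodes of the smaller one. Tnnt2, troponin T of the thin filament, stood at 7596 to 15242 CPM in the cardiomyocyte-like sums and at 3.46% to 87.8% of the same sample's level in its other cell classes, so each class held some cardiomyocyte RNA.

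Stages were compared in 1 fit with the quasi-likelihood test of edgeR, and p-values were adjusted by Benjamini-Hochberg over 15493 genes, with calls at an adjusted p under 0.05. The P7 arm was 1 sum, so its spread was taken from the other stages. From P4 to P28, 1 of the 9 members tested was called, Kcna5, which rose, against 2.95% of all genes tested (457 of 15493). From P7 to P14, 1 of 9 was called, Kcnip2, against 0.955% of all genes, and that call rested on the single P7 sum described below. No member was called from P4 to P7, where 0.110% of all genes were called. There 3 members had an unadjusted p under 0.05, as had 13.2% of all genes, and DESeq2 called 2 members and 2.25% of the genes with an adjusted p. From P14 to P28 no member was called either, with 0.0775% of all genes called, 4 members at an unadjusted p under 0.05 (10.4% of all genes) and 0 called by DESeq2 (1.09%). Kcnj11 fell below the filter on low counts in all stage comparisons, so the counts are over the other 9. The median log2 fold change over the 9 members from P4 to P28 was 0.45, beside 0.03 over all genes. In the comparisons with P7 some genes had no UMI in the P7 sum, so their fitted folds depend on a prior count and bound nothing. With such genes set at the bound given by 3 counts of that sum, and those under it left out, the members' median was -1.42 over 7 genes from P4 to P7 and 1.93 over 8 genes from P7 to P14. The median over all genes was itself -0.61 and 0.52 in these comparisons under edgeR's scaling, and -0.30 and 0.46 under that of DESeq2.

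**Figure D1:**
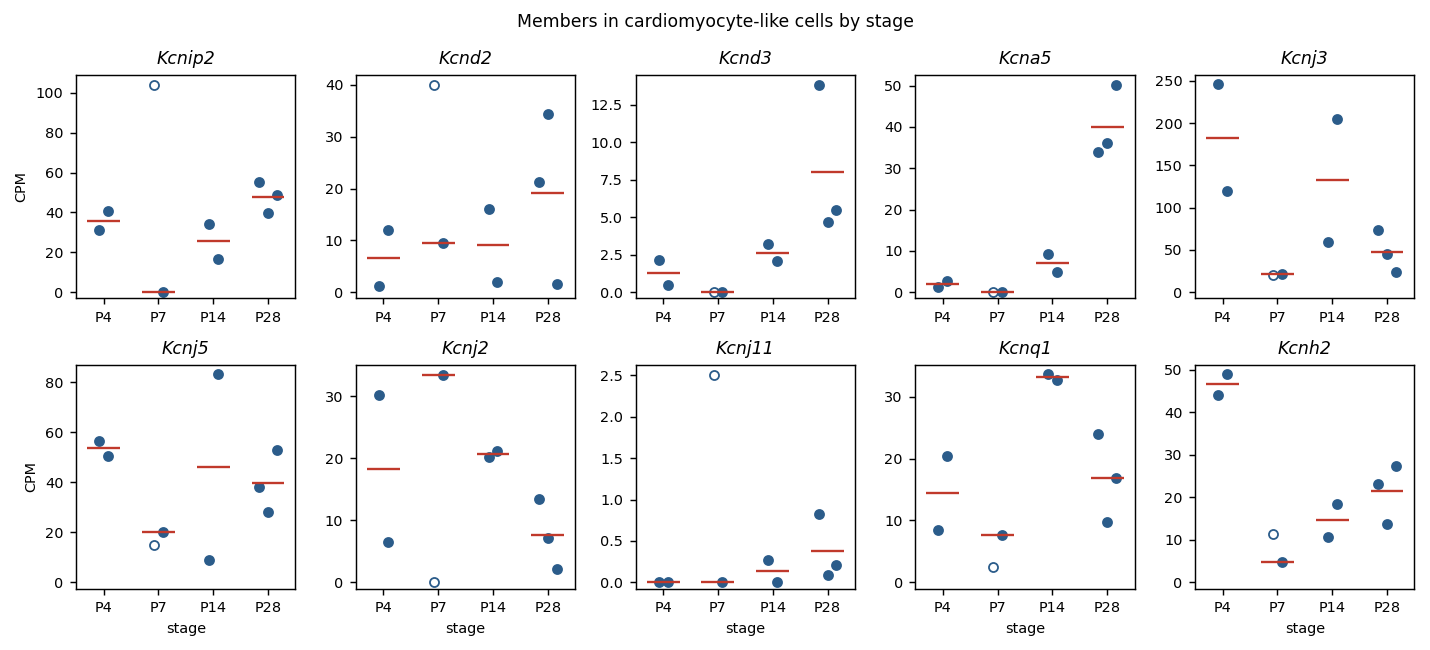
Level (CPM, linear axis from 0, a scale of its own in each panel) of the 10 members in the cardiomyocyte-like cells of each stage sample; filled points are sums of at least 20 cells, bars are their means, and open points are replicate 1 of P7, with 14 cells, which is outside the bars and the fit. Kcna5 is at 33.9 to 50.2 at P28 and at or below 9.14 in earlier samples, while the P7 samples lie far apart for Kcnip2, at 104 and 0.

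Among the transient outward genes, Kcnip2 (chromosome 19, 45791839 to 45816061, minus strand, GRCm38) encodes KChIP2, the calcium-binding subunit that brings Kv4 channels to the membrane. Its level was 31.0 and 40.7 CPM at P4, 34.4 and 16.4 at P14, and 55.2, 39.7 and 48.5 at P28. The P28 samples overlapped with those of P4 and lay above those of P14. None of these stage differences was called: the log2 fold change from P4 to P28 was 0.70 (SE 0.53, adjusted p = 0.537, edgeR) and that from P14 to P28 was 0.52 (SE 0.54, adjusted p = 0.780, edgeR). The P4 sums included atrial-like wells, and the higher P4 levels without those wells are given below.

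The 2 chips of P7 gave opposite values for Kcnip2. Replicate 1, with 14 cardiomyocyte-like cells, held 83 UMIs or 104 CPM, the highest of the stage samples, and 44.6% of them came from 1 of the 6 cells with a UMI. Replicate 2, with 20 cells and 1047320 UMIs, held none, where 3 counts would be 2.86 CPM. Against that floor the P4 mean of 35.8 was at least 12.5-fold higher and the P14 mean of 25.4 at least 8.87-fold higher. The fit that used replicate 2 alone gave a fitted log2 fold change of -10.63 from P4 to P7 (SE 2.11, adjusted p = 0.052, edgeR) and 10.82 from P7 to P14 (SE 2.10, adjusted p = 0.0196, edgeR). With at least 10 cells per sum, which let replicate 1 in, these became 0.43 and -0.20 (adjusted p = 0.884 and 0.933, edgeR), so the sign depends on 1 chip and no direction at P7 can be read from these cells. In the uncounted P7 cluster, Kcnip2 was at 12.7 and 8.14 CPM, and a fit with that cluster added, chosen after seeing the data, gave -1.32 and 1.52 (adjusted p = 0.245 and 0.151, edgeR). In the fit with at least 10 cells 0.0439% and 2.38% of all genes were called from P4 to P7 and from P7 to P14.

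Kcnd2 and Kcnd3 encode the pore subunits Kv4.2 and Kv4.3 that KChIP2 binds. Kcnd2 (chromosome 6, 21215503 to 21729805, plus strand) stood at 1.16 and 12.0 CPM at P4, at 40.1 and 9.55 at P7, at 16.1 and 2.05 at P14, and at 21.2, 34.5 and 1.48 at P28. The stages overlapped throughout, and at P7 1 cell gave all UMIs of replicate 1 and 80.0% of those of replicate 2. Its log2 fold change from P4 to P28 was 1.84 (SE 1.12, adjusted p = 0.423, edgeR). Kcnd3 (chromosome 3, 105452330 to 105674002, plus strand) was sparse, at 2.12 and 0.47 CPM at P4, 0 in both samples of P7, 3.23 and 2.05 at P14, and 13.8, 4.70 and 5.48 at P28. Its 3 samples of P28 were above all earlier ones, yet the log2 fold change of 2.99 from P4 (SE 1.07) was not called (unadjusted p = 0.0120, adjusted p = 0.151, edgeR). Kcnd3 overlaps the antisense gene Kcnd3os, and whether the counting used the strand is not given in the sources used here.

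Kcna5 (chromosome 6, 126532551 to 126535412, minus strand) encodes Kv1.5, a fast delayed rectifier of cardiac and vascular muscle. Its level was 1.35 and 2.81 CPM at P4, 0 in both P7 samples, 9.14 and 4.78 at P14, and 33.9, 36.2 and 50.2 at P28 (mean 40.1 ± 8.83 SD, n = 3). The P28 samples did not overlap with any earlier one, and the P14 samples lay above those of P4. The log2 fold change from P4 to P28 was 4.51 (SE 0.77, adjusted p = 0.0033, edgeR), and that from P14 to P28 was 2.12 (SE 0.69, unadjusted p = 0.0062, adjusted p = 0.316, edgeR). Without replicate 1 of P4 the change from P4 to P28 was 4.07 (adjusted p = 0.110, edgeR) and without replicate 2 it was 5.29 (adjusted p = 0.054, edgeR), so the call needs both P4 samples while its direction and size do not.

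Kcna5 was also the member most often higher outside cardiomyocyte-like cells. In the 11 samples or animals with both classes summed it stood at 27.1 to 165 CPM in endothelial-like cells and was above the cardiomyocyte-like cells in all 11, as it was in fibroblast-like cells in 7 of 10, in macrophage-like cells in 7 of 10 and in mural-like cells in 5 of 6. Of the other 9 members, none was above the cardiomyocyte-like level in more than 5 of these 11 endothelial-like sums. At P4 its endothelial-like level was 29.0 and 30.2 CPM and at P28 it was 114 and 75.2 in replicates 1 and 3, so both classes were higher at P28.

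Some marker RNA of other cell types was also higher at P28 than at P4 in the cardiomyocyte-like sums. The summed level of the 8 endothelial markers was 309 to 332 CPM at P4, 564 to 659 at P7, 756 to 825 at P14 and 790 to 1212 at P28. The P7 sum of replicate 2 held 591 of these marker UMIs and no Kcna5 UMI. The endothelial-like cells of that chip held 4.75 Kcna5 UMIs per 1000 marker UMIs, so the P7 value is too sparse to compare. Per 1000 of these marker UMIs, the cardiomyocyte-like cells held 4.36 and 8.48 Kcna5 UMIs at P4, close to the 5.04 and 5.23 of the endothelial-like cells of the same samples. At P28 they held 27.9, 40.3 and 63.6, above the 16.7 and 23.6 of the endothelial-like cells of replicates 1 and 3. Those endothelial-like cells were the ones with Tnnt2 at 56.4% and 84.9% of the cardiomyocyte-like level. The endothelial-like cells of replicates 2, 4 and 6, whose cardiomyocyte-like cells were too few, held 4.22, 11.4 and 34.4, so over all P28 samples the classes overlapped. Replicate 5 had too few endothelial-like cells for this. Macrophage markers (13.1 to 22.9 CPM at P4, 211 to 567 at P28) and erythroid markers (247 to 381 and 4386 to 32714) were also higher in the P28 sums, while the fibroblast markers (362 to 370 and 309 to 497) and mural markers (513 to 549 and 516 to 723) overlapped or nearly so. At P14 the erythroid markers were at 61277 and 3311 CPM in replicates 1 and 2. The part of such marker RNA in the Kcna5 level was not tested.

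In single cells thinned to 3000 UMIs each, Kcna5 had a UMI in 1.34% and 1.27% of cardiomyocyte-like cells at P4 and in 3.43%, 7.30% and 6.47% at P28. Without thinning the shares were 3.66% and 2.47% at P4 and 9.04%, 19.3% and 8.90% at P28, at median depths of 14626 and 32147 UMIs at P4 and 5142, 38196 and 5240 at P28. Endothelial-like cells gave 4.45% and 3.70% at P4 and 13.5% and 11.6% in replicates 1 and 3 of P28, thinned alike. No class could serve as one that lacks the gene, so part of the cardiomyocyte share may be free RNA, which was not tested.

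**Figure D2:**
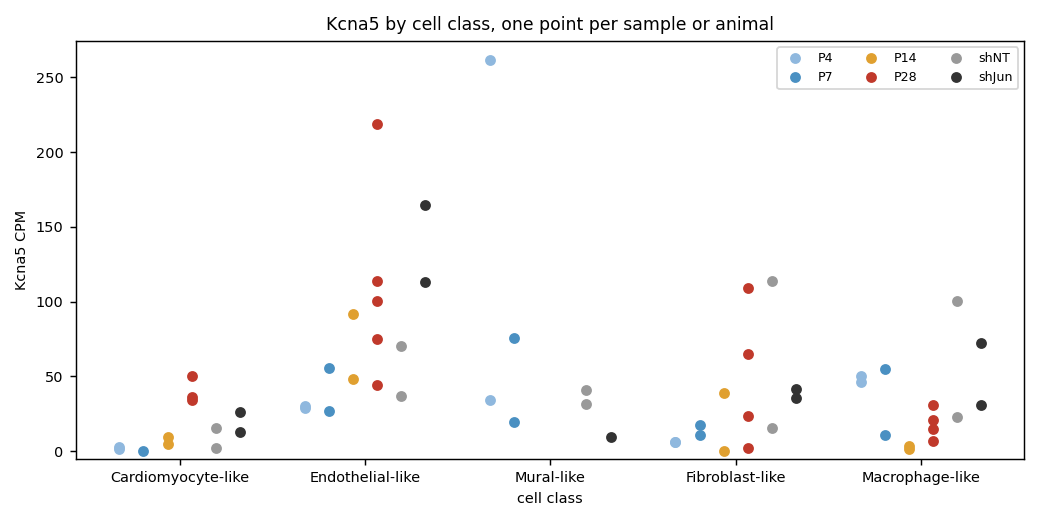
Kcna5 level (CPM, linear axis) in each cell class, with 1 point per sample or knockdown animal and colours for stage or hairpin. In 11 of 11 samples or animals with both classes summed, the endothelial-like point is above the cardiomyocyte-like one, and in both classes the P28 points are above those of P4.

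Kcnq1 and Kcnh2 form the pores of the slow and rapid delayed rectifiers, the channels of inherited long QT syndromes. Kcnq1 (chromosome 7, 143106362 to 143427042, plus strand) stood at 8.48 and 20.4 CPM at P4, then 2.505 and 7.64 at P7, 33.6 and 32.8 at P14, and 24, 9.70 and 16.9 at P28. It was highest at P14, but 83.3% of the UMIs of replicate 2 there came from 1 cell. Its log2 fold change from P14 to P28 was -1.33 (SE 0.61, adjusted p = 0.462, edgeR). The locus holds the antisense transcript Kcnq1ot1, which has no column of its own here. Kcnh2 (chromosome 5, 24319589 to 24351604, minus strand) was higher at P4, with 44.1 and 49.0 CPM, than in any later stage sample, with 11.3 and 4.77 at P7, 10.8 and 18.4 at P14, and 23.2, 13.7 and 27.4 at P28. The samples of P4 and of the later stages did not overlap, yet the log2 fold change of -0.84 from P4 to P28 (SE 0.54, adjusted p = 0.452, edgeR) and that of -3.29 from P4 to P7 (SE 0.97, adjusted p = 0.179, edgeR) were not called. The P7 arm of the latter was the 1 sum of replicate 2, with 5 Kcnh2 UMIs. The P4 sums included atrial-like wells, and the P4 levels of Kcnh2 without them, given below, overlapped with P28.

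Among the inward rectifiers, Kcnj2 (chromosome 11, 111066164 to 111076821, plus strand) encodes Kir2.1, which holds the resting potential. It stood at 30.3 and 6.44 CPM at P4, then 0 and 33.4 at P7, 20.2 and 21.2 at P14, and 13.5, 7.22 and 2.11 at P28. The 3 samples of P28 were below those of P14, with a log2 fold change of -1.74 (SE 0.75, unadjusted p = 0.032, adjusted p = 0.438, edgeR). Kcnj11 (chromosome 7, 46093953 to 46100764, minus strand), the pore of the ATP-sensitive channel, was near 0 in cardiomyocyte-like cells, with no UMI at P4, 2 and 0 UMIs at P7, 1 and 0 at P14, and 5, 2 and 1 at P28. A change in it was not detectable at this depth.

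Kcnj3 and Kcnj5 encode GIRK1 and GIRK4, which together form the acetylcholine-gated channel. Kcnj3 (chromosome 2, 55435970 to 55598145, plus strand) stood at 246 and 119 CPM at P4, then 20.04 and 22.0 at P7, 59.7 and 205 at P14, and 73.6, 45.4 and 24.3 at P28. P4 was above P7 and P28, and P14 spanned both, with 49.5% and 63.5% of its UMIs from 1 cell in each sample. The log2 fold change from P4 to P28 was -1.58 (SE 0.52, unadjusted p = 0.0067, adjusted p = 0.113, edgeR). Kcnj5 (chromosome 9, 32314707 to 32344350, minus strand) was at 56.7 and 50.4 CPM at P4, then 15.03 and 20.1 at P7, 8.87 and 83.3 at P14, and 38.0, 28.2 and 52.7 at P28, with P7 below the samples of P4 and P28. Its log2 fold change from P4 to P28 was -0.14 (SE 0.61, adjusted p = 0.941, edgeR).

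Atrial-like wells were present in the P4 sums and nearly absent later. Wells with more Myl7, the atrial regulatory light chain, than Myl2, its ventricular counterpart, made up 36.6% and 31.5% of cardiomyocyte-like cells at P4, although the labels name ventricle pieces as the tissue digested. They were 1 of 14 and 0 of 20 at P7 and 0 at P14, at P28 and in the knockdown animals. With only wells that had Myl7 below Myl2, a choice made after seeing the data, the Kcnj3 levels at P4 were 130 and 34.7 CPM, which overlapped with P28, and the log2 fold change from P4 to P28 shrank to -0.43 (SE 0.58, adjusted p = 0.764, edgeR). That of Kcna5 was 4.88 (SE 0.80, adjusted p = 0.0040, edgeR) in the same wells. The Kcnj3 difference was smaller without the atrial-like wells, and the Kcna5 difference was as large. In wells with Myl7 below Myl2, Kcnip2 was at 45.3 and 56.5 CPM at P4, which overlapped with P28 and lay above P14. Kcnh2 was at 20.04 and 63.6 CPM in these P4 wells, which overlapped with P28.

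Within P4, 60 and 51 atrial-like wells were compared with 104 and 110 ventricular-like wells of the same chips, with chip as a block. The classes were checked with genes the rule did not use. Sln, sarcolipin of the atria, was at 12614 and 20865 CPM in the atrial-like sums and 106 and 169 in the ventricular-like ones, and Myl3, a ventricular light chain, was at 1180 and 1338 against 4921 and 7009. Of the 7 members tested, 1 was called, Kcnj3, which was higher in atrial-like wells, against 0.853% of all genes tested (93 of 10899). Kcna5, Kcnd3 and Kcnj11 fell below the filter on low counts there. The median log2 fold change of the 7 was 0.23, beside -0.05 over all genes.

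Kcnj3 stood at 418 and 271 CPM in the atrial-like sums and at 130 and 34.7 in the ventricular-like ones, without overlap. The log2 fold change was 2.31 (SE 0.35, adjusted p = 0.0084, edgeR). With each cell thinned to 3000 UMIs, 43.6% and 49.0% of atrial-like wells had a Kcnj3 UMI, against 7.45% and 8.57% of ventricular-like wells. Without thinning the shares were 65.0% and 86.3% against 13.5% and 21.8%, at median depths of 16103 and 38416 against 13843 and 29488 UMIs. Fibroblast-like cells of the same chips, a class that should lack the gene, gave 1.29% and 2.62% thinned and 4.34% and 4.32% unthinned, at median depths of 8974 and 19662 UMIs. In the ventricular-like wells of replicate 1, 38.8% of the Kcnj3 UMIs came from 1 cell. With the chips not blocked the log2 fold change was 2.09 (adjusted p = 0.204, edgeR), and with either chip left out it was 1.68 to 2.92 and not called.

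Its partner Kcnj5 was at 82.1 and 93.8 CPM in the atrial-like sums and 39.4 and 26.1 in the ventricular-like ones, also without overlap. The log2 fold change of 1.44 was not called (SE 0.53, adjusted p = 0.364, edgeR), though it was 2.06 with cells thinned to at most 5000 UMIs (adjusted p = 0.0127, edgeR). Kcnip2 lay the other way, at 10.02 and 12.4 in the atrial-like sums and 45.3 and 56.5 in the ventricular-like ones. Its log2 fold change of -2.18 was not called (SE 0.74, adjusted p = 0.308, edgeR), and it was -3.81 in the thinned cells (adjusted p = 0.0435, edgeR). In replicate 1, 76.2% of the 21 atrial-like Kcnip2 UMIs came from 1 cell.

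The other members were not called. Kcnq1 was at 2.86 and 11.8 CPM in atrial-like and 12.3 and 25.2 in ventricular-like wells, just without overlap (log2 fold change -1.57, SE 1.06, adjusted p = 0.761, edgeR). Kcnj2 was at 8.59 and 3.60 against 44.9 and 8.04, lower on each chip but overlapping between chips. Kcnh2 had opposite directions on the chips, at 79.7 in atrial-like against 20.04 in ventricular-like wells of replicate 1 and at 22.6 against 63.6 in replicate 2. Kcnd2 was at 2.86 and 23.5 against 0 and 5.48, with 83.3% of the atrial-like UMIs of replicate 2 from 1 cell. Kcna5, at 0.95 and 4.90 against 1.62 and 1.64, and Kcnd3, at 1.43 and 0.65 against 2.59 and 0.37, were too sparse to compare.

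**Figure D3:**
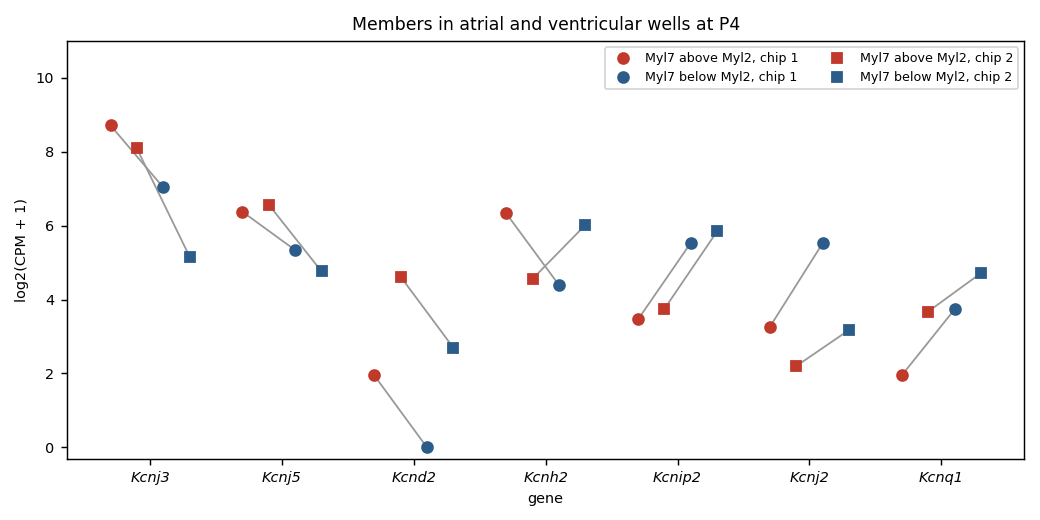
Level (log2 of CPM plus 1) of the 7 members tested in P4 wells with Myl7 above Myl2 (red) and below it (blue), with circles for chip 1, squares for chip 2 and a line joining the classes of a chip. Kcnj3 and Kcnj5 are higher in the red class on both chips, Kcnip2 is lower, and the lines of Kcnh2 cross.

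Lists of related genes were counted in the same fits. Of the 42 further channel pores and auxiliary subunits, 26 were tested between stages and 1 was called from P4 to P28 (2.95% of all genes) and 1 from P7 to P14 (0.955%), in both cases Kcnj8, which encodes Kir6.1, the vascular ATP-sensitive pore. It stood at 1.54 and 5.51 CPM at P4, 0 in both samples of P7, 48.4 and 97.6 at P14, and 35.7, 22.0 and 69.4 at P28. Of the 26, 8 and 9 had an unadjusted p under 0.05 in these comparisons (17.2% and 18.5% of all genes), and DESeq2 called 1 and 4 (7.08% and 8.07%). The log2 fold change of Kcnj8 from P4 to P28 was 3.76 (SE 0.70, adjusted p = 0.0058, edgeR), and the P14 mean of 73.0 was at least 25.5-fold above the floor of 3 counts in the P7 sum. Mural-like cells held 261 to 1264 CPM of it, and the summed mural markers were at 513 to 549 CPM in the cardiomyocyte-like sums of P4, 761 to 932 at P14 and 516 to 723 at P28. The part of such RNA in the Kcnj8 level was not tested. The change from P4 to P28 was 3.15 without replicate 1 of P4, 3.31 with cardiomyocytes called cell by cell and 3.75 with at least 1000 genes per cell, none of them called (adjusted p = 0.143, 0.0908 and 0.0853, edgeR). The call from P7 to P14 was lost with thinned cells and with at least 1000 genes per cell (adjusted p = 0.213 and 0.118, edgeR). From P4 to P7 and from P14 to P28 edgeR called none of the 26 (0.110% and 0.0775% of all genes). There 6 and 4 had an unadjusted p under 0.05 (13.2% and 10.4% of all genes), and DESeq2 called 1 in each (2.25% and 1.09%). The list's median log2 fold change from P4 to P28 was 1.54, beside 0.03 over all genes.

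Of the 8 channel genes tested between atrial-like and ventricular-like wells, 1 was called, against 0.853% of all genes tested. Kcne1, the auxiliary subunit that slows KvLQT1, was lower in atrial-like wells, at 40.6 and 96.8 against 549 and 658 CPM (log2 fold change -3.25, SE 0.30, adjusted p = 1.4e-04, edgeR). It was not called with sums per animal (-3.17, adjusted p = 0.206, edgeR), with all passing wells (-1.19, adjusted p = 0.239, edgeR) or without replicate 1 (-2.81, adjusted p = 0.442, edgeR) or 2 (-3.77, adjusted p = 0.249, edgeR). Its pore partner Kcnq1 was not called in that comparison. Of the 15 trafficking, anchoring and transcriptional partners, all were tested and 1 was called, Tbx5, a T-box factor of the atria and conduction system, at 167 and 88.6 in the atrial-like sums against 10.3 and 15.7 (log2 fold change 3.22, SE 0.57, adjusted p = 0.0262, edgeR). That call was lost with sums per animal (3.03, adjusted p = 0.334, edgeR) and without replicate 1 (2.45, adjusted p = 0.491, edgeR) or 2 (3.99, adjusted p = 0.249, edgeR). Between stages edgeR called 0 of the 15, where it called 0.0775% to 2.95% of all genes. In each stage comparison 3 had an unadjusted p under 0.05, as had 10.4% to 18.5% of all genes. DESeq2 called 1 from P4 to P28 (7.08% of all genes) and 0 in the other 3 (1.09% to 8.07%). Between shJun and shNT, 29 channel genes and the 15 partners were tested, and edgeR called 0 (0% of all genes). None had an unadjusted p under 0.05 and DESeq2 called 0 (1.81% and 0.0502% of all genes). The partners' median log2 fold change was -0.33 from P4 to P28 and -0.13 between the P4 classes, where that of the channel list was -0.53.

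In the knockdown animals, 806, 726, 797 and 1074 cardiomyocyte-like cells (shJun 1 and 2, shNT 1 and 2) gave 37180972 to 55741918 UMIs per animal, the deepest sums of the series. Calling cardiomyocytes one by one from their marker UMIs gave 920, 1183, 1141 and 1415 cells in the same order. The targeted gene, Jun, was at 27.6 and 31.5 CPM with shJun and 50.8 and 59.8 with shNT, without overlap (log2 fold change -0.99, SE 0.24, unadjusted p = 0.0067, adjusted p = 0.99999, edgeR). The comparison asks whether the channels at day 28 differ when Jun is targeted from birth. No member of the 10 tested was called by edgeR, none had an unadjusted p under 0.05 and DESeq2 called 0. Over all 17631 genes tested edgeR called 0%, whereas the unadjusted p of 320 was under 0.05 and DESeq2 called 8 (1.81% and 0.0502%). The members' log2 fold changes ran from -0.54 to 1.05 with SEs of 0.19 to 1.01 and unadjusted p of 0.147 to 0.909 (edgeR), which does not show that the groups are alike.

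Kcnip2 was at 124 and 117 CPM with shJun and 132 and 75.8 with shNT, and Kcnj3 at 133 in both shJun animals and 158 and 156 with shNT. The Kcnip2 groups overlapped, and the Kcnj3 groups did not, with a log2 fold change of -0.32 (SE 0.19, unadjusted p = 0.147, adjusted p = 0.99999, edgeR). Kcna5 varied most, at 12.5 and 26.2 with shJun and 2.31 and 15.5 with shNT. Endothelial marker RNA was at 1103 and 1200 CPM in shJun 1 and 2 and at 234 and 1803 in shNT 1 and 2. The part of such RNA in the Kcna5 level was not tested. Of the 1074 cells of shNT 2, 407 lay in a cluster whose cardiomyocyte markers were a mean of 0.51 above the other cells on the log2 scale, against 0.78 and 0.79 in the animal's other cardiomyocyte-like clusters. Its 10 leading genes held no marker fixed for either cardiomyocytes or endothelium. Among them, Rasgrp3 and Pcdh17 also led an endothelial-like cluster of P4. In that shNT 2 cluster Kcna5 stood at 38.6 and the endothelial markers at 3882 CPM, against 7.86 and 5.98 and 1569 and 708 in the animal's other cardiomyocyte-like clusters. The log2 fold change was 1.05 (SE 0.85, adjusted p = 0.99999, edgeR), 1.496 with animals of 1 number as a replicate block (SE 0.49, adjusted p = 0.99961, edgeR), higher with shJun in both pairs, and 1.98 without that cluster, a choice made after seeing the data (SE 0.61, adjusted p = 0.99865, edgeR). Without shNT 2, the log2 fold change of Kcna5 was 2.93 (adjusted p = 0.0019, edgeR; 1.77% of all genes called), a call that then rests on shNT 1. In these deeper sums no member but Kcnj11 had more than 27.9% of its UMIs from 1 cell in any animal. Kcnip2 was in 53.9% to 68.9% of the cells, or 16.2% to 26.1% of cells thinned to 3000 UMIs, against 0% to 2.57% of endothelial-like cells thinned alike and 2.12% to 8.11% without thinning, at median depths of 20984 to 52217 UMIs there and 29725 to 50261 in cardiomyocyte-like cells. The knockdown animals were on chips of their own, so their levels are not compared with those of the stages.

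**Figure D4:**
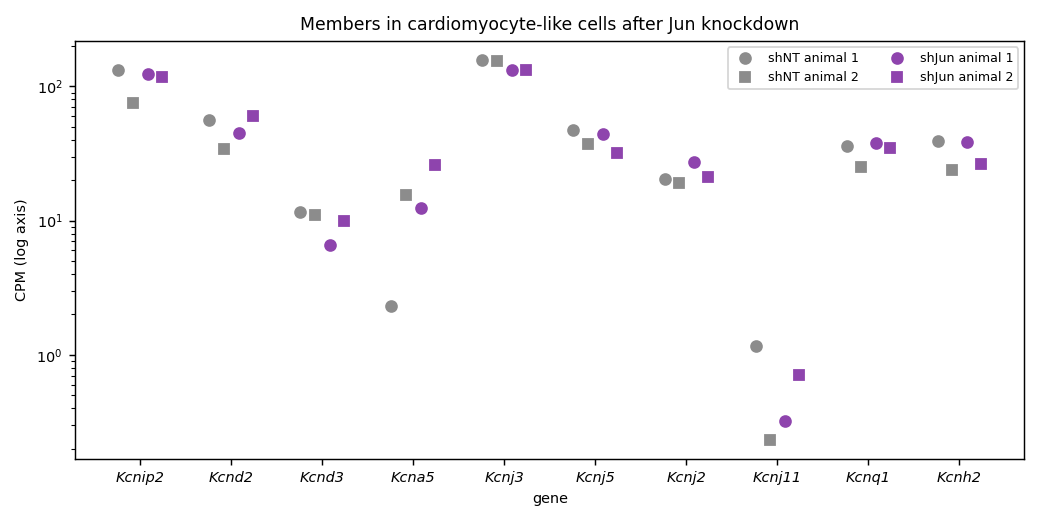
Level (CPM, log axis) of the 10 members in cardiomyocyte-like cells of the 4 knockdown animals, grey for shNT and purple for shJun, with circles for animal 1 and squares for animal 2. The shNT animals lie apart for Kcna5 (2.31 and 15.5) and Kcnip2 (132 and 75.8), and no member was called between the groups.

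The genes whose log2 levels followed Kcnip2 most closely over the 8 stage sums were Ric8b, Bet1, Lonp1, Tm9sf3 and Synrg, with a Pearson r of 0.99 to 0.98 among 7864 genes compared. These sums include the P7 sum without a Kcnip2 UMI. With the other P7 chip added as 1 more sum, r was 0.99 for Ric8b, 0.81 for Bet1, 0.71 for Lonp1, 0.94 for Tm9sf3 and 0.94 for Synrg, given as a description of few points that share depth and cell number.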

How the data were processed

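The authors deposited raw UMI counts per gene and well for each chip, with a report per well. Per the labels' processing notes, STAR 2.5.2b and featureCounts of Subread 1.4.6-p1 were used, with mm10. The strandedness of counting is not given in the sources used here. Mitochondrial genes (35) were left out. Cells with at least 500 genes and within 2 SD of the mean log10 UMIs of their stage or knockdown animal were kept. Cells were clustered per stage or knockdown animal (10 principal components, 30 neighbours, Leiden), without the potassium channel genes. Clusters were named from markers when at least 3 markers were detected in 20% of cells and the markers were a mean of at least 0.5 above the other cells on the log2 scale. Further rules on depth, leading genes and globin RNA withheld some names. No doublet caller was run. UMI counts were summed over cardiomyocyte-like cells per sample (at least 20 cells) or per knockdown animal. Sums were tested with edgeR 4.0.16 (R 4.3.3; TMM, filterByExpr, quasi-likelihood test, adjusted p under 0.05), with DESeq2 1.42.0 as an alternative. The stages were fitted together without a block, since each chip held 1 stage, and the classes of P4 wells with the chip as a block. Wells with Myl7 equal to Myl2 entered neither class, and the alternative with all passing wells also left out those with under 5 UMIs of Myl7 plus Myl2. The fits were tested on simulated data.

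The text names the 10 members, and from 2 lists of channel and partner genes those past the threshold. These members and lists were chosen with earlier results of these data known. Likeness to Kcnip2 was ranked by Pearson r among genes that reached 20 CPM. Knockdown animals of 1 number share chips, by the well reports, and their deviations from the group means correlated (r = 0.343, 17631 genes). Gene positions are from GENCODE annotation of GRCm38. Counts of 3 served as the floor, and counting intervals and floors cover counting error only. Alternatives covered the scaling, filters, samples, unit of summing, cell calling and depth per cell.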

Additional observations from a re-analysis of the deposited data

Results flagged for a closer look

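Replicates 2, 4 and 6 of P28 held too few cardiomyocyte-like cells to enter a comparison, and Kcna5 gave a signal in their endothelial-like cells, at 44.5, 101 and 219 CPM. These cells are outside the comparisons above.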

How the results depend on the processing

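All p-values here are adjusted and from edgeR unless DESeq2 is named. Shares in parentheses are of all genes. Without the low-count filter 2 members (2.76%) were called from P4 to P28, and 1 with any 1 sum of another stage than P4 left out (1.39% to 5.62%). Leaving out a P4 sum leaves 1 in that arm. From P4 to P7, DESeq2 (2.25%) and the fit without a filter (0.604%) called 2, the fit of only these stages 3 (4.95%), the wells with Myl7 below Myl2 1 (0.154%) and the fit with the uncounted P7 cluster 3 (6.35%), the last pair chosen after seeing the data. From P7 to P14, DESeq2 (8.07%), the fit without a filter (2.03%), that with at least 10 cells per sum (2.38%) and that with the P7 cluster (8.33%) called 2, cardiomyocytes called cell by cell 3 (3.69%), and only these stages (1.08%), sums per animal (1.21%) and thinned cells (0.00883%) 0. From P14 to P28 all 19 alternatives called 0 (0 to 1.09%). For the P4 classes, the fit with no replicate block called 0 (0.376%), all passing wells 2 (0.551%) and thinned cells 3 (2.83%). With either chip alone, the spread of the other stages' sums was used for the lone sums. Between shJun and shNT, the replicate block called 0 members (0%). The change of Kcna5 without shNT 2 is given above. Kcnip2 reversed from P4 to P7 with sums per animal (0.45), at least 10 cells (0.43) and cells called one by one (0.60), and from P7 to P14 with sums per animal (-0.37) and at least 10 cells (-0.20), each of which let the other P7 chip in. Kcna5 from P4 to P28 ranged from 4.07 to 5.29 over 19 alternatives and was not called in 2 of them, those without replicate 1 or 2 of P4. The limits on marker UMIs that called cells one by one were set after seeing the data. Depth limits Kcnj11 and Kcnd3 in the stage and P4 class comparisons and every member at P7.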
